A study of Homo sapiens with 53 samples.

Results

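The sites bound by Flag-tagged TET1, TET2 and TET3 were set against each other in HEK293T cells, an established line derived from human embryonic kidney, after treatment with the compound BPK-25. The members are all rows of the 3 deposited BPK-25 TET peak lists, with overlapping or touching rows merged. This gave 447 TET1, 509 TET2 and 13360 TET3 peaks, which fall on 13545 merged sites, out of 385944 merged regions over the 10 lists of the series.

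The study measured chromatin binding by immunoprecipitation and sequencing, and its title places it around the NuRD complex, a nucleosome remodelling and deacetylase complex, at binding sites of CTCF. Per the labels, the BPK-25 groups are HEK293T-derived lines with Flag-tagged TET1, TET2 or TET3, given 30 µM BPK-25 for 72 h and immunoprecipitated with an anti-Flag antibody. Each of these 3 groups has 3 labelled immunoprecipitates and 3 inputs. The DMSO groups are the same lines in the solvent alone, with 3 immunoprecipitates for TET1 and TET3 and 2 for TET2. The parental HEK293T cells, without a tagged TET protein, were immunoprecipitated for CTCF, the zinc-finger protein of insulators and loop anchors, and for MBD3, a subunit of NuRD, in both treatments. How the tag was introduced, and whether a line is 1 clone, is not given in the sources used here. No anti-Flag immunoprecipitate of the parental line is among the samples used here, so signal of the antibody without its target was not measured. Each list was read as pooling a group's replicates, because the labels name 1 list for them all. The TET2 DMSO list is named for 3 replicates although 2 are labelled, so what it pools is unclear. Nothing below therefore has a spread between replicates, and no test between lines or treatments was possible.

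TET proteins are dioxygenases that oxidise the methyl group of methylated cytosine in DNA, a step towards its removal. TET1 and TET3 have forms with a CXXC zinc finger that binds CpG-containing DNA, which TET2 lacks. BPK-25 is known from earlier work as a compound that lowers the amounts of NuRD proteins in cells.

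Depth and background differed between the lists. The genome background, the lowest expected number of fragments at a summit and a measure of pooled depth, was 1.75 fragments for TET1, 1.05 for TET2 and 1.65 for TET3 under BPK-25, and 1.85, 1.25 and 1.70 fragments in DMSO. At this background the lowest number of fragments called under BPK-25 was 10 for TET1 and 8 for both TET2 and TET3. Fold enrichment is the authors' ratio of fragments to local background at a summit, taken as having 1 added to each. Fold enrichments of different lists are not on a common scale. A peak was counted as having high local background where that background reached 20 times its list's genome background. Such peaks made up 21.3% of the TET1 list, 33.4% of the TET2 list and 0.741% of the TET3 list under BPK-25, and 0.605%, 4.54% and 0.304% in DMSO. Sites were called of low local background where no peak of theirs reached 20 times. Square brackets hold the 95% interval of a share by the exact method of Clopper and Pearson, in which counting error is the sole source of spread.

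Under BPK-25 almost all TET sites were sites of TET3 alone, and most TET1 and TET2 peaks lay at TET3 peaks. Of the 13545 sites, 12879 were held by the TET3 list only, 95.1% [94.7 to 95.4]. All 3 lists held 238 sites. TET2 and TET3 shared 127 further sites, TET1 and TET3 shared 110, and TET1 and TET2 shared 33. TET1 alone held 58 sites and TET2 alone 100. In DMSO, 16720 sites divided differently: 10446 were held by TET3 alone, 62.5% [61.7 to 63.2], 790 by all 3 lists, 160 by TET2 and TET3, 2704 by TET1 and TET3, 62 by TET1 and TET2, 2360 by TET1 alone and 198 by TET2 alone. Sites with at least 2 of the proteins were 508, or 3.75% [3.44 to 4.08], under BPK-25 and 3716, or 22.2% [21.6 to 22.9], in DMSO. These numbers follow the lengths of the lists, and the TET1 list was far shorter under BPK-25, with 447 peaks against 5951 in DMSO.

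**Figure D1:**
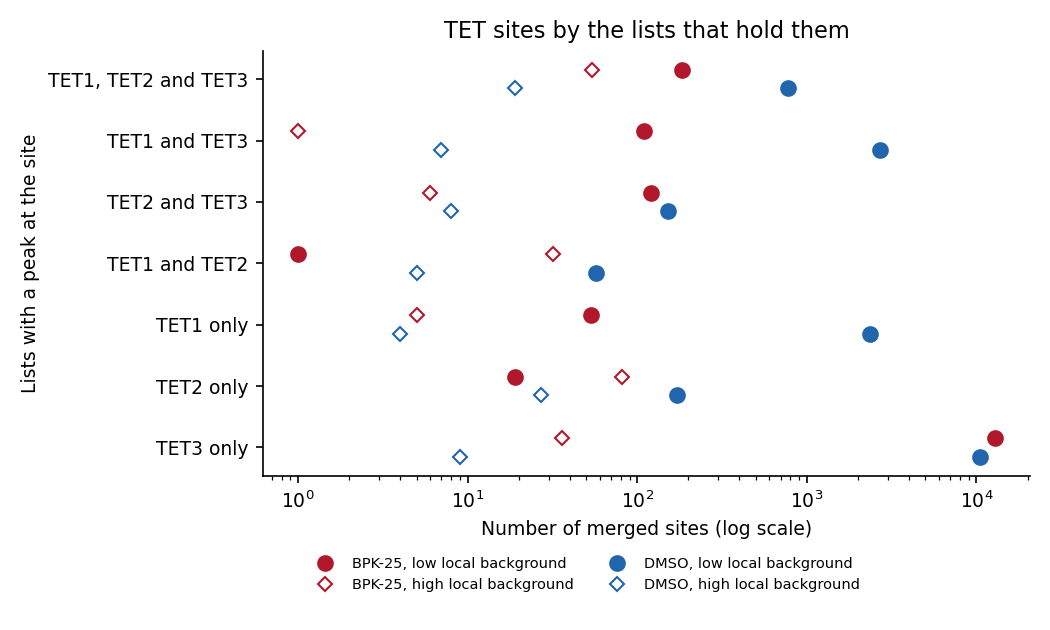
Number of merged sites, on a log axis, for each combination of lists under BPK-25 (red) and in DMSO (blue); filled circles are sites of low local background and open diamonds sites of high local background. TET3-only sites are the most numerous in both treatments, and under BPK-25 the sites of TET1 and TET2 without TET3 and of TET2 alone are mostly of high local background.

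Local background separated the classes. Of the 33 sites that TET1 and TET2 shared without TET3 under BPK-25, 97.0% had high local background, which left 1 site of low background. Of the 100 TET2-only sites 81% had it, which left 19. The share was 22.7% among the sites of all 3 lists, leaving 184, but 0.909% among those of TET1 and TET3 and 4.72% among those of TET2 and TET3, leaving 109 and 121. For TET1-only and TET3-only sites it was 8.62% and 0.280%, leaving 53 and 12843. The sites of low background numbered 13330 in all, and results by class below are for these unless stated otherwise. Widths of merged sites ran from a median of 386 bp for the sites of all 3 lists to 186 bp for TET1-only sites and 211 bp for TET3-only sites.

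Taken pair by pair, 79.0% [74.9 to 82.7] of TET1 peaks overlapped a TET3 peak under BPK-25, against 59.3% [58.0 to 60.5] in DMSO. Among TET1 peaks of low local background the shares were 84.4% [80.2 to 88] under BPK-25 and 59.2% [57.9 to 60.4] in DMSO. For TET2 peaks the share at TET3 was 73.9% [69.8 to 77.6] under BPK-25 and 78.7% [76.3 to 80.9] in DMSO. Without the peaks of high background that order turned round, with 94.1% [91.0 to 96.4] of TET2 peaks under BPK-25 and 80.4% [78.0 to 82.6] in DMSO. TET2 peaks at a TET1 peak were 54.4% [50 to 58.8] under BPK-25 and 70.4% [67.8 to 72.9] in DMSO, and TET1 peaks at a TET2 peak were 62.0% [57.3 to 66.5] under BPK-25 and 14.4% [13.5 to 15.3] in DMSO. Seen from the long list, 2.63% of TET3 peaks overlapped TET1 and 2.78% overlapped TET2 under BPK-25, against 24.9% and 6.72% in DMSO.

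Summits lay close together where a low-background peak of the first-named list overlapped a peak of the other. Such distances are limited by peak width. Median peak widths for TET1, TET2 and TET3 were 214, 248 and 213 bp under BPK-25, and 267, 229 and 277 bp in DMSO. The part of width in the distances was not tested. The median distance between TET1 and TET2 summits was 14 bp (quartiles 7 and 24) under BPK-25 and 23 bp (9 and 55) in DMSO. TET1 and TET3 summits lay 14 bp apart (6 and 33) under BPK-25 and 46 bp (18 and 118) in DMSO. For TET2 and TET3 the distances were 16 bp (7.50 and 36) under BPK-25 and 25 bp (10 and 68.8) in DMSO. Limiting each BPK-25 list to its 447 strongest peaks lowered the share of TET1 peaks at TET3 to 45.6% and that of TET2 peaks at TET3 to 49.4%, while TET1 at TET2 was 60.0%. The shares at TET3 thus rest partly on TET3 peaks outside its 447 strongest, and they depend on the length of that list.

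TET1 and TET2 lay at the strong end of the TET3 list. The TET3 peaks were divided into 10 equal parts of 1336 peaks by the authors' -log10 q. In the weakest part 0.299% [0.0816 to 0.765] overlapped TET1 or TET2, in the 9th part 3.89% [2.92 to 5.07], and in the strongest 25.8% [23.5 to 28.3]. Of the 100 strongest TET3 peaks 76% [66.4 to 84.0] overlapped one of them, 67% TET1 and 73% TET2, but 47 of these 100 had high local background. The share with a DMSO TET3 peak was 23.1% in the weakest part, 37.1% in the 9th and 56.9% in the strongest.

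**Figure D2:**
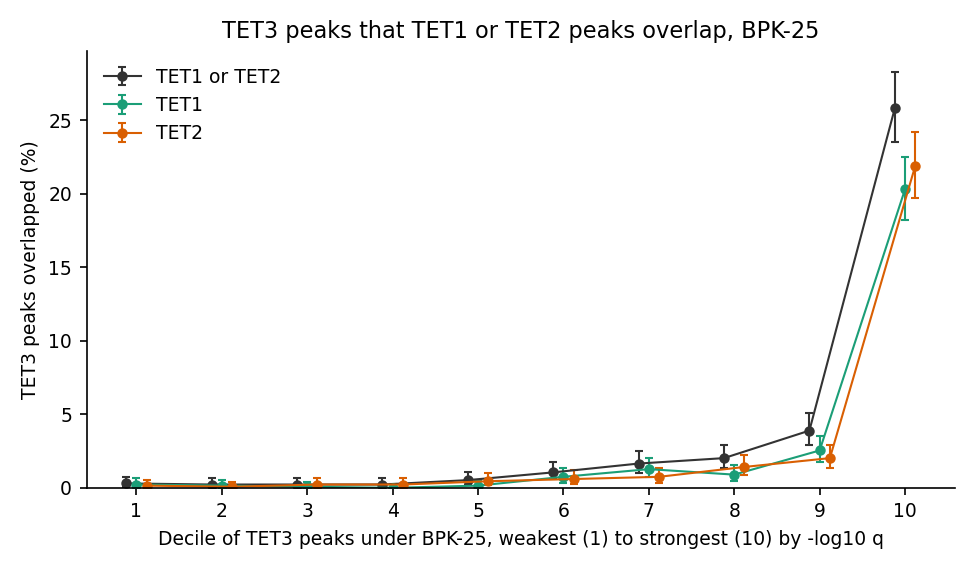
Share of BPK-25 TET3 peaks, in percent, that overlap a TET1 peak, a TET2 peak or either, for 10 equal parts of the TET3 list from weakest (1) to strongest (10) by -log10 q; bars are exact 95% intervals. The share with either stays at or below 3.89% up to the 9th part and is 25.8% in the strongest.

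The same held from the other side. The low-background TET1 and TET2 peaks under BPK-25 were divided into 4 parts by -log10 q. Of the 88 weakest TET1 peaks 51.1% [40.2 to 61.9] lay at a TET3 peak, against 96.6% [90.4 to 99.3] of the 88 strongest. For TET2 the shares were 83.3% [73.6 to 90.6] of the 84 weakest and 100% [95.8 to 100] of the 85 strongest. TET3-only sites were not all faint: their median TET3 fold enrichment was 4.91 (quartiles 4.11 and 6.10), and the highest was 23. In the TET1 list a fold enrichment of 4 sufficed for a call at the genome background, and 76.3% of TET3-only sites had a TET3 fold enrichment of at least that size; 4.40 sufficed in the TET2 list, and 65.3% reached it. TET3 fold enrichments cannot show what the other lines would have reached there.

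Median enrichment was highest where all 3 proteins met, in each of the 3 lists apart from the single site of TET1 and TET2, which had 10.3 in the TET2 list. At sites of all 3 lists the median fold enrichment was 7.69 (quartiles 6.09 and 9.45) in the TET1 list, 9.77 (7.90 and 11.9) in the TET2 list and 14.3 (11.1 and 17.8) in the TET3 list. Where TET1 and TET3 met without TET2 the medians were 5.09 for TET1 and 7.94 for TET3. Where TET2 and TET3 met without TET1 they were 6.35 for TET2 and 8.69 for TET3. Sites of 1 list alone had 4.17 for TET1, 5.37 for TET2 and 4.91 for TET3. Across sites, Spearman's rho of fold enrichment was 0.642 between TET1 and TET3 (293 sites) and 0.624 between TET2 and TET3 (305 sites). It was 0.286 between TET1 and TET2 (185 sites). The sets of sites differ: 184 of these 185 were sites of all 3 lists, while the pairs with TET3 also held weaker sites of 2 lists. The pairs were not compared on the same sites. These are descriptions across sites that were called in both lists, within 1 pooled set of libraries per protein.

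**Figure D3:**
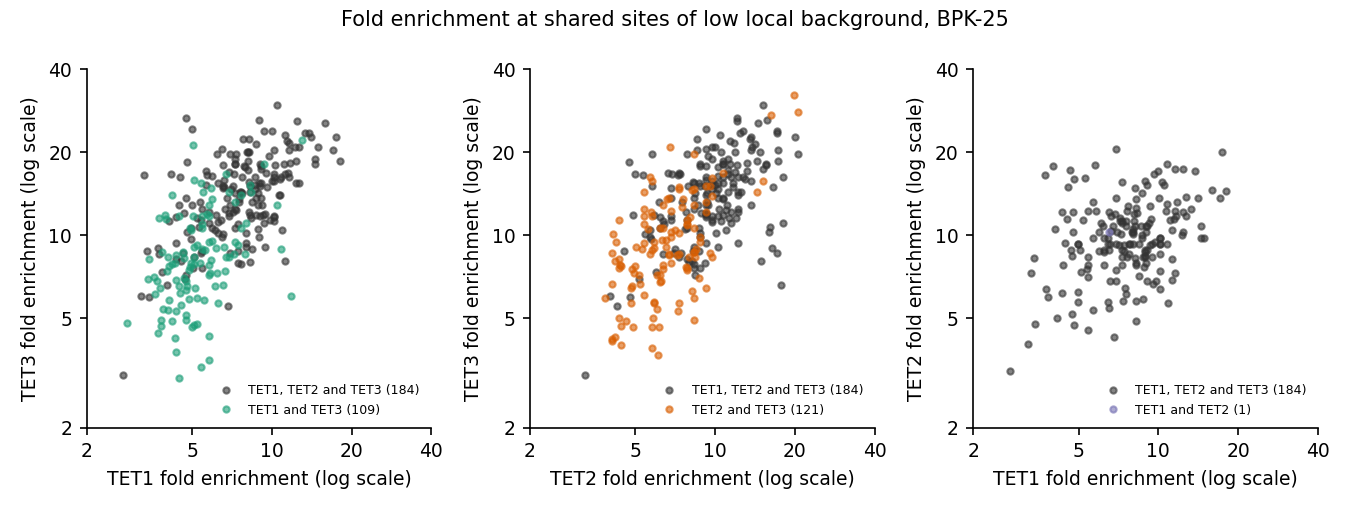
Fold enrichment in 1 BPK-25 list against another, on log axes, at sites of low local background that both lists hold; each point is a site, coloured by the lists that hold it, with numbers in the legend. Sites of all 3 lists have higher medians than sites of 2 lists (14.3 against 7.94 and 8.69 in the TET3 list). Spearman's rho is 0.286 for TET1 and TET2, 0.642 for TET1 and TET3 and 0.624 for TET2 and TET3, over unlike sets of sites.

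The sites of all 3 proteins were concentrated on few chromosomes, above all chromosome 6. Of the 181 such sites on chromosomes 1 to 22 and X, 56 lay on chromosome 6, 30.9% [24.3 to 38.2], against 7.76% [7.30 to 8.24] of TET3-only sites. Chromosome 19 held 20 (11%, against 4.47% of TET3-only sites), chromosome 17 also 20 (11%, against 7.72%) and chromosome 14 held 14 (7.73%, against 3.18%). Among the sites of TET2 and TET3, chromosome 6 held 23 of 115, 20% [13.1 to 28.5], and among those of TET1 and TET3 it held 9 of 105, 8.57% [3.99 to 15.6].

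Within chromosome 6 (build hg19) 30 sites of all 3 proteins lay between 27125802 and 27870912 and 22 between 26286654 and 26773969. On chromosome 14, 11 sites lay between 21077377 and 21152411, on chromosome 17, 8 between 8022271 and 8130479, and on chromosome 5, 8 between 180515936 and 180649582. A further 3 lay on chromosome 5 between 140090271 and 140106003. On chromosome 19, 9 sites lay between 50600788 and 50637367 and 4 between 48421508 and 48437618. Further stretches with 4 sites lay on chromosome 17, from 37023769 to 37310942, and on chromosome 1, from 145394956 to 145399518 and from 161391745 to 161501096. In the order given, the whole megabases around these stretches held 46 and 37 TET3-only sites on chromosome 6 and 9 on chromosome 14. They held 16 and 17 on chromosome 17, 17 and 9 on chromosome 5, 32 and 24 on chromosome 19, and 24 and 22 on chromosome 1. These stretches were singled out after their counts were seen. As background, the stretches on chromosomes 6 and 14, that from 8022271 on chromosome 17 and that at the end of chromosome 5 are known for clusters of tRNA genes. RNA polymerase III transcribes these genes. The shorter chromosome 5 stretch is known for vault RNA genes, also transcribed by that polymerase, and the chromosome 6 stretches also hold histone genes. No annotation of hg19 was used here, so no site was placed in an exon or intron, and the few gene names given below (MYO1C, TET1, TET3 and EEF1A1) come from the description of the series.

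The RefSeq table for GRCh38.p14 was used only for the chromosome of each gene, since its coordinates belong to another build. It places 155 of 443 nuclear tRNA genes, 35.0%, on chromosome 6, and 5.25% of protein-coding genes. Over 23 chromosomes the numbers of sites of all 3 proteins followed the numbers of tRNA genes with Spearman's rho 0.886, and with 0.870 without chromosome 6. With protein-coding genes the values were 0.494 and 0.477. Pearson's r was 0.916 with tRNA genes and 0.431 with protein-coding genes, and without chromosome 6 these were closer, at 0.736 and 0.637. Chromosome 19 did not follow the tRNA genes, with 11% of the sites of all 3 proteins but 1.58% of tRNA genes and 7.26% of protein-coding genes. For TET3-only sites Spearman's rho was 0.704 with tRNA genes and 0.773 with protein-coding genes, and Pearson's r was 0.710 and 0.824. Without chromosome 6 rho was 0.662 and 0.776 for these sites, and r was 0.857 and 0.837, so the order of r turned round. Sites of TET2 and TET3 followed the tRNA genes too, with Spearman's rho 0.815 and Pearson's r 0.934, or 0.789 and 0.906 without chromosome 6. For sites of TET1 and TET3 these were 0.671 and 0.686, or 0.626 and 0.910 without chromosome 6. With protein-coding genes rho and r were 0.665 and 0.632 for TET2 and TET3, or 0.662 and 0.771 without chromosome 6. For TET1 and TET3 they were 0.482 and 0.697, or 0.459 and 0.696 without chromosome 6. All these values are descriptions over chromosomes, which differ in length, and not a measure of overlap with genes.

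**Figure D4:**
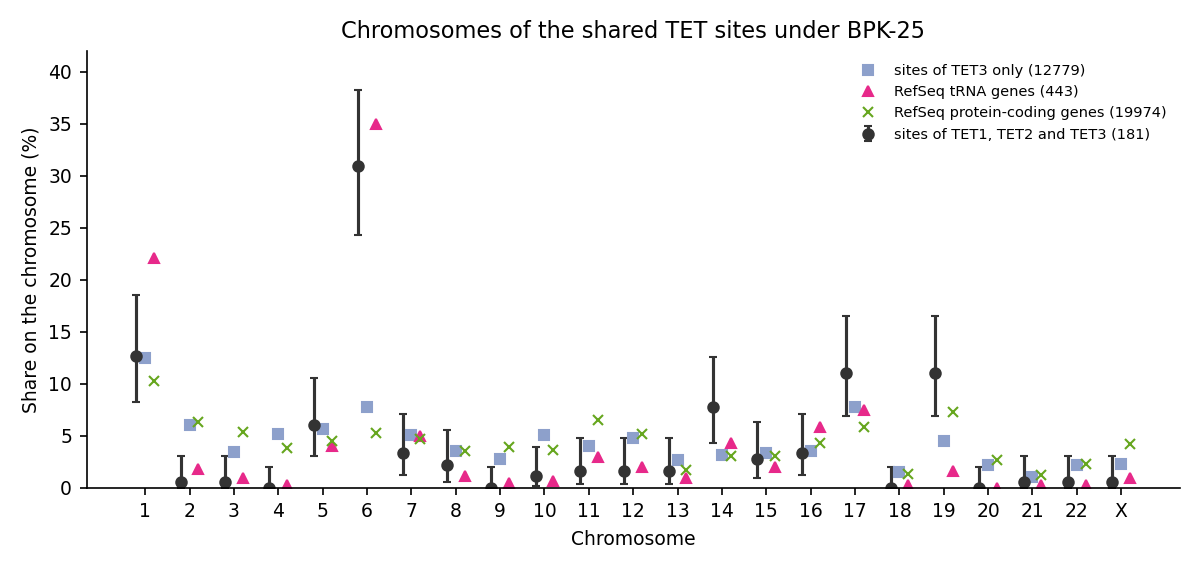
Share on each chromosome, in percent, of the 181 BPK-25 sites of all 3 TET proteins (circles, with exact 95% intervals), the TET3-only sites (squares), RefSeq tRNA genes (triangles) and RefSeq protein-coding genes (crosses). Chromosome 6 holds 30.9% of the sites of all 3 proteins and 35.0% of the tRNA genes, against 7.76% of TET3-only sites and 5.25% of protein-coding genes.

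Among the sites named by rank, the chromosome 6 site from 26568968 to 26569530 had a fold enrichment of 17.4 for TET1, 20.0 for TET2 and 22.7 for TET3 under BPK-25, and 16.3, 4.76 and 4.85 in DMSO. Its local background was at the genome level in all 3 BPK-25 lists. On chromosome 1, the site from 16871589 to 16872674 had 10.5, 15.2 and 29.7 under BPK-25 and 15.6, 9.65 and 18.1 in DMSO. Both were thus called for all 3 proteins in both treatments. A site near the end of chromosome 7, from 23978 to 24475, had 3.77, 6.35 and 8.53 under BPK-25, at 13.5 to 17.3 times the genome background. In DMSO it had 2.97 for TET1 and 2.71 for TET3, with no TET2 peak. The fourth named site, on chromosome 1 from 567876 to 568176, had 11.3, 8.20 and 8.08 under BPK-25 at 11.4 to 13.1 times the genome background. It had no peak in any of the other 7 lists.

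The sites of TET2 and TET3 without TET1 included strong sites that all 3 proteins held in DMSO. At the MYO1C locus, so named in the description of the series and known for an unconventional myosin, the site on chromosome 17 from 1372507 to 1372924 had 19.8 for TET2 and 32.1 for TET3 under BPK-25, with no TET1 peak. In DMSO it had 39.6 for TET1, 50.4 for TET2 and 64.3 for TET3. The site on chromosome X from 1324249 to 1325442 had the same pattern, with 20.5 for TET2 and 28.0 for TET3 under BPK-25 and 29.1, 36.4 and 50.8 for TET1, TET2 and TET3 in DMSO. On chromosome 6, the site from 27300519 to 27301062 had 15.1 and 15.7 under BPK-25 and 13.1, 5.16 and 14.3 in DMSO, and on chromosome 11 that from 59327720 to 59328071 had 14.4 and 14.4 under BPK-25 and 10.7, 6.28 and 12.6 in DMSO. None of the 4 had a CTCF peak in either treatment.

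A further group of TET2 and TET3 sites lay in the stretch of chromosome 1 from 228745726 to 228783871, which is known for the tandem array of 5S ribosomal RNA genes. It held 18 TET3, 3 TET2 and 0 TET1 peaks under BPK-25, against 18 TET3, 7 TET2 and 13 TET1 peaks in DMSO. The whole lists held 13360 TET3, 509 TET2 and 447 TET1 peaks under BPK-25, against 14129, 1233 and 5951 in DMSO. In this stretch the CTCF list had 18 peaks under BPK-25 and 16 in DMSO, and the MBD3 list 18 in both. The named TET3-only sites from 228772755 to 228772996 and from 228752478 to 228752886 belong to it, with fold enrichments of 15.4 and 15.0 under BPK-25 and 16.1 and 13.5 in DMSO.

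Sites of TET1 and TET3 without TET2 were weaker in the TET1 list and more often at CTCF sites than those of all 3 proteins. The strongest away from the start of chromosome 1 lay on chromosome 9 from 998513 to 999027, with 13.1 for TET1 and 22.1 for TET3 under BPK-25 and 6.17, 5.56 and 4.96 for TET1, TET2 and TET3 in DMSO. The CTCF fold enrichment there was 8.48 under BPK-25 and 242 in DMSO. The chromosome 14 site from 21125533 to 21126026 had 10.9 and 8.91 under BPK-25 and the chromosome 16 site from 3207196 to 3207562 had 10.5 and 12.9. In DMSO both of these held all 3 proteins, with 4.59, 4.64 and 5.86 for TET1, TET2 and TET3 at the chromosome 14 site and 5.18, 9.73 and 13.8 at the chromosome 16 site. The named site on chromosome 1 from 568759 to 568934 had 11.8 for TET1 and 5.99 for TET3 under BPK-25 and no peak in the other lists.

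TET1 and TET2 sites without TET3 were few once high local background was left out. The 1 low-background site that TET1 and TET2 shared without TET3, on chromosome 19 from 1354493 to 1354694, had fold enrichments of 6.54 and 10.3 under BPK-25. In DMSO all 3 lists held it, at 9.96, 7.04 and 5.10. Of the 53 TET1-only sites, 12 lay on chromosome 13, 22.6% [12.3 to 36.2], against 2.65% [2.38 to 2.95] of TET3-only sites. TET2-only sites had a like share there, 4 of the 17 on numbered chromosomes and X, 23.5% [6.81 to 49.9]. The local background of the 12 TET1-only sites had a median of 2.02 times the genome background, against 1.15 times at the other 41. Among all low-background peaks the medians on chromosome 13 and elsewhere were 2.09 and 1.22 for TET1 and 1.75 and 1.12 for TET2. For TET3 they were 1.28 and 1.10. The part of this background in the calls was not tested. The 2 strongest TET1-only sites on chromosome 13 lay next to each other, from 88544499 to 88544741 and from 88546151 to 88546315, with 6.90 and 5.67 at 13.1 and 7.89 times the genome background. Another TET1-only site beside them, from 88543679 to 88544273, reached 20.6 times and so counted as of high local background. No other list of the series had a peak there. The other 2 named TET1-only sites were also in no other list: chromosome 10 from 70432645 to 70432808, within the TET1 gene region described below, had 5.81 at 8.08 times the genome background, and chromosome 1 from 67624569 to 67624876 had 6.56 at 1.52 times.

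The named TET2-only sites were faint, with a fold enrichment of 7.33 on chromosome 15 (77704349 to 77704525), 6.68 on chromosome 19 (4763146 to 4763349), 6.84 on chromosome 4 (180592851 to 180593056) and 6.32 on chromosome 16 (70812905 to 70813086). The first 2 had no peak in any other list. The chromosome 4 site was also held by TET2 and TET3 in DMSO, at 8.30 and 7.23, and the chromosome 16 site by all 3 proteins in DMSO, at 5.95, 6.26 and 4.87. Of all 19 low-background TET2-only sites, 12 had no peak in a DMSO TET list. Among TET3-only sites the chromosome 7 site from 1560122 to 1560690 had 23 under BPK-25, and 5.08 for TET1 and 6.23 for TET3 in DMSO. The fourth named TET3-only site, on chromosome 1 from 236260413 to 236260695, had 9.11 at 17.7 times the genome background and no TET peak in DMSO.

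Sites shared under BPK-25 were mostly sites already called in DMSO, while sites of 1 protein mostly were not. Over all 13330 sites of low background, 19.5% overlapped a TET1 peak of the DMSO list, 5.91% a TET2 peak and 34.1% a TET3 peak, and 39.2% overlapped any of these. Of the sites of all 3 proteins 97.8% [94.5 to 99.4] overlapped a DMSO TET1 peak, 87.5% [81.8 to 91.9] a TET2 peak and 98.4% [95.3 to 99.7] a TET3 peak. For the sites of TET2 and TET3 the shares were 84.3%, 61.2% and 93.4%, and for those of TET1 and TET3 57.8%, 33.9% and 62.4%. TET3-only sites had 17.5%, 3.99% and 32.5%. TET1-only sites had 5.66% and 13.2% for TET1 and TET3, and 0 of 53 at TET2, where an exact interval reaches 6.72%. Overlap with any DMSO TET peak was thus 98.9% for the sites of all 3 proteins, 97.5% for TET2 and TET3, 68.8% for TET1 and TET3, 17% for TET1 alone, 36.8% for TET2 alone and 37.6% for TET3 alone.

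Many TET2 and TET3 sites under BPK-25 had been sites of all 3 proteins in DMSO. Of 121 such sites 57.0% [47.7 to 66] overlapped DMSO peaks of all 3 proteins, 24.8% [17.4 to 33.5] of TET1 and TET3, and 2.48% [0.514 to 7.07] of TET2 and TET3 alone. Read forwards, the background over all 16641 low-background DMSO sites was that 1.57% overlapped a TET1 peak under BPK-25, 1.80% a TET2 peak and 30.9% a TET3 peak. Of the 771 DMSO sites of all 3 proteins, 25% [22 to 28.2] overlapped a BPK-25 TET1 peak, 29.7% [26.5 to 33.1] a TET2 peak and 83.4% [80.6 to 86.0] a TET3 peak. By combination, 20.4% had all 3 proteins under BPK-25, 49.5% TET3 alone, 8.95% TET2 and TET3, 4.54% TET1 and TET3, and 16.2% none. Of the 2697 DMSO sites of TET1 and TET3, 1.56% [1.12 to 2.1] overlapped a TET1 peak under BPK-25 and 50.1% [48.2 to 52.0] a TET3 peak.

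The shared sites differed in how they lay to CTCF and MBD3. The CTCF list held 245419 peaks under BPK-25 and 99587 in DMSO, covering 86.5 and 42.0 Mb, with median fold enrichments of 3.71 and 11.3. The MBD3 list held 243213 and 82358 peaks, covering 88.7 and 35.1 Mb, with medians of 3.77 and 3.65. Of all low-background sites, 43.2% had a summit of the DMSO CTCF list within 100 bp. The share was 54.1% [44.3 to 63.7] for the sites of TET1 and TET3, 28.1% [20.3 to 37.0] for those of TET2 and TET3 and 19.6% [14.1 to 26.0] for those of all 3 proteins. TET3-only sites had 43.7% [42.8 to 44.6] and TET1-only sites 18.9% [9.44 to 32.0]. Where a summit lay that close, the median CTCF fold enrichment in DMSO was 106 (quartiles 73.0 and 157) at 59 sites of TET1 and TET3. It was 89.1 (51.8 and 129) at TET3-only sites. The spread was wide at 36 sites of all 3 proteins, with 48.1 (3.84 and 74.6), and at 34 sites of TET2 and TET3, with 22.9 (5.59 and 94.9). A summit of the BPK-25 CTCF list lay within 100 bp of 21.8% of all low-background sites, 29.4% [21.0 to 38.8] of those of TET1 and TET3, 5.79% [2.36 to 11.6] of those of TET2 and TET3 and 10.3% [6.33 to 15.7] of those of all 3 proteins. Where one did, the median CTCF fold enrichment under BPK-25 was 4.30, 4.24, 3.67 and 3.51 in that order. The shares at shared sites kept their order without chromosome 6 in both CTCF lists, with 56.0%, 32.7% and 21.1% for the DMSO list and 30%, 7.14% and 14.1% for the BPK-25 list.

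**Figure D5:**
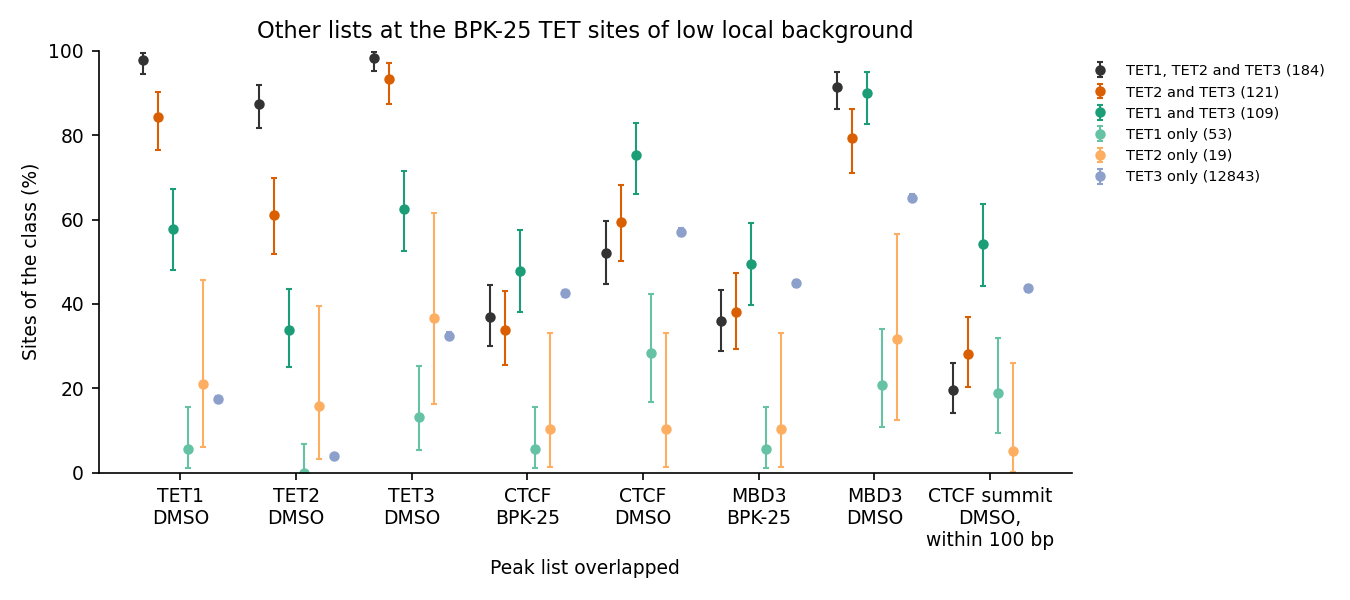
Share of BPK-25 TET sites of low local background, in percent, that overlap each other list of the series, and in the last column the share with a DMSO CTCF summit within 100 bp; colours give the lists that hold the site, with numbers in the legend, and bars are exact 95% intervals. The sites of TET1 and TET3 stand highest for CTCF summits (54.1%) and those of all 3 proteins highest for the DMSO TET lists. The single low-background site of TET1 and TET2 is left out.

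MBD3 peaks of the DMSO list overlapped 65.7% of all low-background sites. They overlapped 91.3% [86.3 to 94.9] of the sites of all 3 proteins, 89.9% [82.7 to 94.9] of those of TET1 and TET3 and 79.3% [71.0 to 86.2] of those of TET2 and TET3. The share was 65.2% for TET3-only, 20.8% for TET1-only and 31.6% for TET2-only sites. In the BPK-25 MBD3 list, with 44.6% over all sites, the shares were 35.9% [28.9 to 43.3] for all 3 proteins, 49.5% [39.8 to 59.3] for TET1 and TET3, 38.0% [29.3 to 47.3] for TET2 and TET3 and 44.9% for TET3 alone. The sites of all 3 proteins on chromosome 6 weighed on this value, since it was 47.7% without that chromosome. The CTCF list of BPK-25 overlapped 37.0% of the sites of all 3 proteins, or 49.2% without chromosome 6, against 42.2% of all low-background sites. The CTCF list of DMSO overlapped 52.2% of the sites of all 3 proteins, or 62.5% without chromosome 6, against 57.0% of all low-background sites. In these 3 lists the sites of all 3 proteins lay below the share of all sites with chromosome 6 kept. The shares of all sites given here include that chromosome. Without it TET3-only sites had 45.9%, 43.3% and 57.5%, against the 47.7%, 49.2% and 62.5% of the sites of all 3 proteins.

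The regions of high local background under BPK-25 numbered 42 when such peaks within 100 kb of each other were joined. In 20 of them all 3 lists had such a peak, in 9 TET3 alone, in 5 TET2 alone and in 2 TET1 alone. The highest lay on chromosome 1 from 121484363 to 121485419, where TET1 had 3904, TET2 3600 and TET3 3921 times the genome background. The fold enrichments were low there, at 2.02, 2.87 and 1.94 under BPK-25 and 1.89, 1.99 and 1.88 in DMSO. The next lay on chromosome 10 from 42596883 to 42597190, at 2511, 2309 and 2585 times, with 1.84, 2.40 and 1.78 under BPK-25 and 1.49 for TET1 and 1.74 for TET2 in DMSO.

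Some regions of high background lay over TET genes. They do not tell the lines apart in DMSO, where the TET1 and TET3 lists both had high background over each other's gene, and the TET2 gene was not examined. Over the TET1 gene on chromosome 10, from 70332139 to 70451564, the TET1 list had 5 peaks of high local background, at up to 119 times the genome background under BPK-25 and 214 times in DMSO. TET3 peaks there reached 2.41 times under BPK-25 and 46.3 times in DMSO, and TET2 had none in either treatment. Over the TET3 gene on chromosome 2, from 74213523 to 74329312, the TET3 list had 7 such peaks, at up to 765 times under BPK-25 and 1244 times in DMSO. The TET2 list reached 5.88 times under BPK-25 and 19.1 times in DMSO, and the TET1 list had no peak under BPK-25 and up to 422 times in DMSO. At EEF1A1, the gene of a translation elongation factor, the site on chromosome 6 from 74229760 to 74230962 was held by all 3 lists, at up to 162 times for TET1, 11.4 for TET2 and 489 for TET3 under BPK-25 and 436, 37.0 and 859 in DMSO.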

How the data were processed

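The labels describe 53 samples in 18 groups, with 1 peak list per target and treatment, 10 in all. The submitters' processing notes name the build hg19 and, in no stated role, MACS2 2.1.2, Bowtie2 2.3.4, bedtools 2.25.0, SAMtools 1.9 and FastQC 0.11.7. A summit's row in the deposited lists holds a score, a fold enrichment (a ratio), 2 values that are the −log10 of its p-value and its q-value, and its offset from the start of the interval, all from the authors' peak caller. Coordinates are hg19, written 1-based.

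Overlapping or touching rows were merged with Python 3.11.15, pandas 2.3.3, numpy 2.4.6 and scipy 1.17.1, each peak keeping the summit of highest −log10 q. Peaks of the 3 TET lists that overlapped or touched formed a site, and peaks were matched between lists by at least 1 bp. The number of fragments and the local background of a summit follow from its fold enrichment and Poisson p-value. Among summits with fewer than 200 fragments, 100% came out within 0.02 of a whole number. Merging and matching were tested on simulated data. Total read numbers were not used.

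Named sites were the 4 strongest per combination of lists on chromosomes 1 to 22 and X with local background under 20 times in each list, by −log10 q or, for shared sites, by the lowest percentile of −log10 q within a list, and the 2 of highest background per list. The members, lists and named stretches were chosen with earlier results of these data known. RefSeq's GRCh38.p14 table gave only the chromosome of each gene. No sequence is printed, as no hg19 sequence was used here.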

Additional observations from a re-analysis of the deposited data

How the results depend on the processing

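No paired analysis was possible because each list pools the replicates of its group and its columns carry no replicate number. For the same reason no replicate could be left out, and no value has a replicate check. The comparisons recomputed were the number of sites per combination of lists under BPK-25 and the shares of TET1 at TET3, TET2 at TET3 and TET1 at TET2. With a −log10 q of at least 5, sites of TET1 and TET3 numbered 57, of TET1 alone 13 and of TET3 alone 6529, TET1 at TET3 was 85.5% and TET1 at TET2 77.4%. With at least 10, sites of all 3 lists numbered 147, of TET1 and TET3 33, of TET2 and TET3 75, of TET1 alone 13 and of TET3 alone 2351, TET2 at TET3 was 69.2% and TET1 at TET2 78.5%. Chromosomes 1 to 22 and X alone left 18 sites of TET1 and TET2 and 63 of TET2, with TET2 at TET3 at 81.5%. Merging intervals within 500 bp gave 20 sites of TET1 and TET2, and TET2 at TET3 78%. Requiring summits within 200 bp gave 74.7% for TET1 at TET3 and 68.8% for TET2 at TET3. With the 447 strongest peaks of each list, sites of TET1 and TET3 numbered 25, of TET2 and TET3 39, of TET1 and TET2 89, of TET1 alone 152 and of TET3 alone 207, and TET1 and TET2 at TET3 were 45.6% and 49.4%; shorter lists meet less often by construction. Without peaks of high local background, 1 site of TET1 and TET2 and 24 of TET2 alone were left, TET1 at TET3 was 84.4%, TET2 at TET3 92.6% and TET1 at TET2 53.4%. Here the high-background peaks were removed from both lists, and 5 TET2 peaks met only such TET3 peaks. Leaving out chromosome 6, an alternative chosen after seeing the data, gave 69.0% for TET2 at TET3. A common lowest −log10 p and an overlap of 50% of the shorter peak moved no count by over 1.5 times and no share out of its interval. Except as stated, causes were not tested. A site missing from a list is not shown to be unbound. The genome background, which follows depth, was lowest for TET2 and highest for TET1 under BPK-25. For TET1 it was 1.75 fragments under BPK-25 and 1.85 in DMSO. The part of depth in the lengths of the lists was not tested.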

Other observations

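Some BPK-25 TET sites lay in sequence where no list of DMSO cells had a peak. On chromosome 1, from 564661 to 569486, 6 sites held 6 TET1, 5 TET2 and 6 TET3 peaks under BPK-25, with fold enrichments of up to 11.8, 8.85 and 8.08 and a local background of up to 68.5, 55.7 and 68.6 times the genome background. None of the 3 TET lists in DMSO and none of the 4 CTCF and MBD3 lists had a peak there. The mitochondrial chromosome likewise held 1 TET1, 1 TET2 and 3 TET3 peaks, 8 CTCF and 8 MBD3 peaks under BPK-25 and none of any target in DMSO. As background, the start of chromosome 1 in hg19 holds a nuclear copy of mitochondrial sequence. Whether the amount of mitochondrial DNA in the libraries differed was not tested.

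The contigs outside chromosomes 1 to 22 and X held 33 TET1, 72 TET2 and 111 TET3 peaks under BPK-25, and 51, 22 and 90 in DMSO. The lists differed in which contigs these were, but most BPK-25 TET peaks on the contigs named below had high local background. The unplaced contig gl000220, which as background holds ribosomal RNA genes, held 27 TET3 peaks, no TET1 and no TET2 peak under BPK-25, and 3 TET3 peaks and no TET1 or TET2 peak in DMSO. It also held 59 CTCF and 54 MBD3 peaks under BPK-25, against 17 and 36 in DMSO. The contig gl000226 held 14 TET1, 18 TET2 and 5 TET3 peaks under BPK-25 and none in DMSO. The contig gl000199 of chromosome 9 held 11 TET1, 43 TET2 and 5 TET3 peaks under BPK-25 and 2, 8 and 2 in DMSO. Under BPK-25, high local background was reached by 20 TET3 peaks on gl000220 and by all TET peaks on gl000226. On gl000199 it was reached by 11 TET1, 42 TET2 and 5 TET3 peaks.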
